A study of Mus musculus with 6 samples.

Results

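Fatty acid oxidation shortens acyl-CoA chains in repeated cycles, and the 34 genes described here encode its enzymes, carriers and a coactivator. They were chosen by name: the carnitine shuttle, mitochondrial and peroxisomal beta-oxidation, the electron transfer flavoprotein that takes up the electrons, and Ppargc1a. All 34 were found, each once, among the 57508 genes of the deposited tables. RNA came from KPC1199, a mouse cell line labelled as pancreatic tumour cells, in 3 WT libraries (names beginning siACSL5_CY3) and 3 ACSL5 knockdown libraries (names beginning siACSL5_ and a number). The labels give no meaning for CY3 or the number, no time after treatment and no clone. The knockdown titles say KO while the genotype field says knockdown. Since the labels name no separate cultures, p-values measure the spread between libraries, which may be technical.

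Long-chain fatty acids are first activated to acyl-CoA by synthetases such as ACSL5. Carnitine palmitoyltransferase 1 passes the chain to carnitine at the outer mitochondrial membrane, a carrier takes it across the inner membrane, and carnitine palmitoyltransferase 2 returns it to coenzyme A. Each turn of the cycle in the matrix then runs through an acyl-CoA dehydrogenase, a hydratase, a hydroxyacyl-CoA dehydrogenase and a thiolase. Peroxisomes shorten very long and branched chains with an oxidase in the place of the dehydrogenase. Malonyl-CoA, the first committed product of fatty acid synthesis, inhibits carnitine palmitoyltransferase 1, so that synthesis and oxidation are tied to each other.

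Libraries held between 21794244 and 29996194 expected counts. WT replicate 1 stood apart. Its log2 CPM correlated at 0.902 to 0.922 with the other 5 libraries, against 0.972 to 0.992 among those 5. The mean length of a gene, weighted by its counts, was 2546 bases in WT replicate 1 and 3529 to 3632 bases in the others. Comparisons are therefore given over all 6 libraries and over the 5 without WT replicate 1. Values below follow the order of replicates 1, 2 and 3 in each group, in CPM (counts scaled to library size, with TMM factors) unless TPM is named. Acsl5, the targeted gene (chr19:55251938-55297720, plus strand, GRCm38), stood at 342, 265 and 270.2 CPM in the WT libraries and 49.8, 55.6 and 57.2 CPM in the knockdown libraries. The groups did not overlap, and knockdown kept 18.5% of the WT mean (log2 fold change -2.43, adjusted p = 0.0619 by edgeR's quasi-likelihood test over 6 libraries and 5.95e-08 over 5; exact two-sided permutation p = 0.1, the smallest that 3 against 3 libraries allow). All 7 epithelial tumour markers were detected, with a summed level of 8539 to 9067 TPM (level per length, scaled to a fixed sum) in WT and 7890 to 8636 TPM in knockdown. Cdh1 (37.2, 95.7 and 92.8 TPM in WT, 127, 131 and 126 in knockdown) was higher in every knockdown library. So was Sox9 (13.3, 18.3 and 16.3 TPM in WT, 39.9, 25.6 and 27.1 in knockdown). Krt19 was lower in each (5206, 4704 and 4578 TPM in WT, 3774, 4387 and 4489 in knockdown), and the rest overlapped. Sums of 3 other marker lists were higher in every knockdown than in every WT library, the endothelial list at trace level (0.12 against 0.08 to 0.11 TPM), the acinar list (12.4 to 14.7 against 6.26 to 9.94 TPM) through Cela1 and the leukocyte list (7.16 to 8.59 against 3.55 to 6.53 TPM) through Cd68. The defining acinar genes Ptf1a and Cpb1 and the leukocyte genes Adgre1 and Cd3e were at 0 in all 6 libraries, and the part of such cells in the results was not tested. Adipocyte markers summed to at most 0.25 TPM. The sums of 2 further lists overlapped between groups. Fibroblast and stellate cell markers summed to 42.3 to 101.9 TPM in WT and 75.6 to 84.3 TPM in knockdown, with Col3a1 the largest part. Markers of a mesenchymal state summed to 1681 to 1771 TPM in WT and 1591 to 1937 TPM in knockdown, with Vim the largest part.

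The 34 genes spanned a wide range of levels. Per length, the most abundant over the 6 libraries were Hsd17b10 with a mean of 227 TPM and Etfb with 226 TPM. The dehydrogenases Acadl with 154 TPM and Acadm with 149 TPM followed. In WT replicate 1, Hsd17b10 was at its highest (311 TPM) and Acadm at its lowest (104 TPM), so these orders rest partly on that library. At the other end stood Ehhadh with 0.238 TPM, Cpt1c with 0.848 TPM and Ppargc1a with 1.30 TPM. Summed over all 34, the level was 1804, 2004 and 2029 TPM in WT replicates 1, 2 and 3 and 1915, 2009 and 1966 TPM in knockdown. The total for the pathway therefore overlapped between groups, and in bulk RNA less RNA per cell and fewer expressing cells cannot be told apart.

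All 34 genes passed the filter on low counts in both comparisons. Without WT replicate 1, 4 of the 34 rose in knockdown cells (Cpt1a, Crat, Hadh and Acaa1b) and 11 fell (Acadl, Acads, Acadsb, Etfa, Hadha, Hadhb, Echs1, Decr1, Decr2, Acox3 and Hsd17b4) at an adjusted p below 0.05 in edgeR's quasi-likelihood test. That is 44.1% of the 34, beside 34.3% of the 15152 genes tested. The 4 that rose make 11.8%, beside 16.3% of all genes, and the 11 that fell make 32.4%, beside 18.0%. At an unadjusted p below 0.05, the share was 47.1%, beside 44.0% of all genes. The median log2 fold change of the 34 was -0.08, beside -0.0089 for all genes tested. The calls rest on 2 WT libraries: 8 of the 34 were called when WT replicate 2 was also left out (23.5%, beside 19.7% of all genes), and 6 when WT replicate 3 was (17.6%, beside 16.5%). With each library's GC trend removed 8 were called, and the share of the 34 turned from above to below that of all genes (23.5%, beside 31.6%). Acadl, Acads, Echs1, Hadh and Acox3 were called whichever further library was left out. Cpt1a, Etfa, Hadha, Hadhb, Decr1 and Hsd17b4 lost their calls without WT replicate 2 and also without WT replicate 3, Acaa1b without WT replicate 2, and Crat, Acadsb and Decr2 without WT replicate 3. Hadha, Decr1, Hsd17b4 and Acaa1b lost theirs without knockdown replicate 2, and Etfa, Hadhb, Hsd17b4 and Acaa1b without knockdown replicate 3. On the per-length scale, log2(TPM + 1), only Echs1, Hadh and Acaa1b were called, 2 higher and 1 lower (9.38% of the 32 that passed the filter there, beside 17.8% of all genes), while all genes went from 2471 higher and 2722 lower calls to 1459 higher and 1008 lower.

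Over all 6 libraries none of the 34 was called, beside 0% of the 14679 genes tested. An unadjusted p below 0.05 was reached by 4 genes, Acads, Echs1, Decr1 and Decr2, all lower in knockdown (11.8%, beside 16.0% of all genes). Over the same 6 libraries DESeq2 called Acads and Echs1 among the 34 (5.88%, beside 4.61% of all genes with an adjusted p), and limma-voom called none (beside 0.0545%). The median of the 34 was -0.19, beside -0.02 for all genes. In CPM, the 3 knockdown libraries lay entirely on one side of the 3 WT libraries for 11 of the 34, 3 higher and 8 lower, which is 32.4%, beside 34.3% of all genes. In TPM this held for 10, 7 higher and 3 lower (29.4%, beside 31.3%). Only 5 genes were separated in the same direction on both scales (14.7%, beside 20.5%): Cpt1a, Crat and Acaa1b were higher, and Echs1 and Decr1 were lower.

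**Figure D1:**
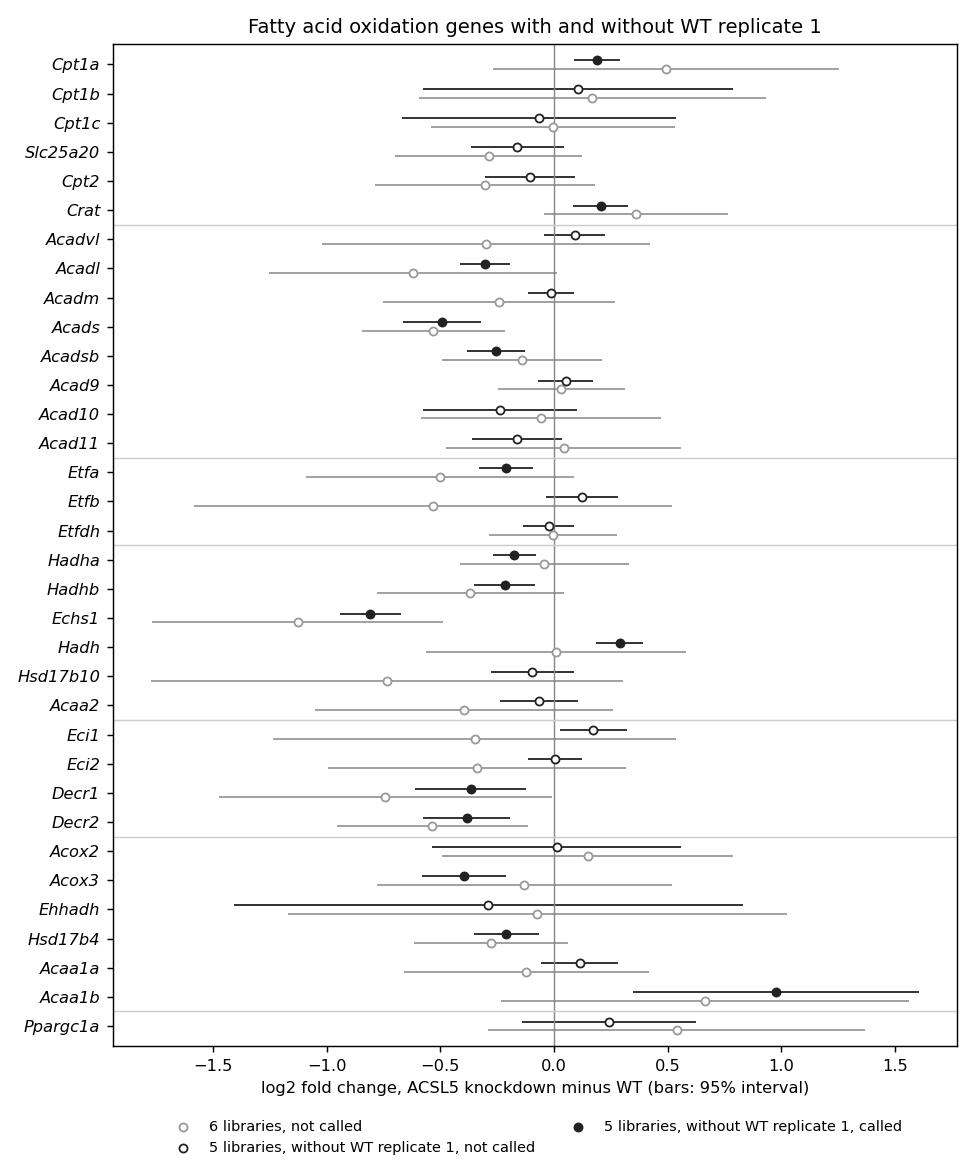
Log2 fold change (ACSL5 knockdown minus WT, horizontal axis) of each of the 34 genes, grouped by step, over 6 libraries (grey) and over 5 libraries without WT replicate 1 (black), with 95% intervals as bars. Filled points passed the adjusted p threshold: none over 6 libraries and 15 over 5, with Echs1 lowest at -0.81 and Acaa1b highest at 0.98.

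Entry into the mitochondrion was represented by 6 genes of the carnitine shuttle. Over 5 libraries, 2 rose, none fell and 4 did not pass the test, with a median log2 fold change of 0.02. Cpt1a, the liver-type carnitine palmitoyltransferase 1 and the step that malonyl-CoA inhibits, stood at 78.6, 175 and 171 CPM in the WT libraries and 202, 203 and 192 CPM in the knockdown libraries. All knockdown libraries lay above all WT libraries, and WT replicate 1 lay far below the other 2. Cpt1a rose to 115% of the mean of WT replicates 2 and 3 (log2 fold change 0.19, SE 0.046, adjusted p = 0.00947), and over 6 libraries its value was 0.49 (adjusted p = 0.457). Crat, which exchanges short acyl groups between coenzyme A and carnitine in mitochondria and peroxisomes, stood at 43.0, 61.5 and 57.5 CPM in WT and 69.8, 69.0 and 69.0 CPM in knockdown. Its 3 knockdown values differed by less than 1 CPM and lay above every WT value. Crat rose over 5 libraries (log2 fold change 0.21, SE 0.055, adjusted p = 0.0146).

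Cpt1a was the main form of the enzyme. It supplied 86.1% of the summed TPM of Cpt1a, Cpt1b and Cpt1c in WT replicate 1 and 92.5% to 97.2% in the other 5 libraries. Cpt1b, the muscle form, lay between 1.15 and 4.71 TPM and Cpt1c, a form of the endoplasmic reticulum known from brain, between 0.49 and 1.02 TPM. The inner-membrane carrier Slc25a20 had a log2 fold change of -0.16 (95% interval -0.37 to 0.043) and Cpt2, which returns the chain to coenzyme A, -0.11 (-0.30 to 0.092). Neither passed the test.

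Among the 8 acyl-CoA dehydrogenases, which start each cycle and differ in the chain length they prefer, 3 fell over 5 libraries, none rose and 5 did not pass (median -0.20). Acadl, the long-chain enzyme, had the highest mean TPM of the 8 over the 6 libraries, though Acadm had the higher knockdown mean (152 against 144 TPM). Acadl stood at 327, 176 and 191 CPM in the WT libraries and 153, 147 and 152 CPM in the knockdown libraries. Every knockdown library lay below every WT library in CPM, and WT replicate 1 lay far above the other 2. In TPM the groups overlapped. Acadl fell to 81.9% of the mean of WT replicates 2 and 3 (log2 fold change -0.30, SE 0.050, adjusted p = 0.00102). Acads, the short-chain enzyme, stood at 60.8, 59.4 and 50.6 CPM in WT and 38.1, 40.5 and 39.6 CPM in knockdown. In CPM the groups did not overlap, and here WT replicate 1 lay close to WT replicate 2. In TPM the groups overlapped, at 36.0, 58.4 and 45.4 TPM in WT and 36.2, 38.7 and 38.1 TPM in knockdown, with WT replicate 1 lowest. Acads fell to 71.6% (log2 fold change -0.50, SE 0.078, adjusted p = 0.000813), and over 6 libraries the value was nearly the same, -0.53 (unadjusted p = 0.00597, adjusted p = 0.159).

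Acadsb, which acts on short branched chains from isoleucine, stood at 64.5, 78.3 and 82.2 CPM in WT and 69.7, 70.5 and 63.7 CPM in knockdown. Its lowest WT value, in replicate 1, lay inside the knockdown range, so the groups of 3 overlapped. Acadsb fell over 5 libraries (log2 fold change -0.26, SE 0.057, adjusted p = 0.00592) and had -0.14 over 6. The other 5 dehydrogenases did not pass. Medium-chain Acadm had a log2 fold change of -0.01 (95% interval -0.12 to 0.087), very-long-chain Acadvl 0.09 (-0.045 to 0.23) and Acad9, also an assembly factor of respiratory complex I, 0.05 (-0.070 to 0.17). These 3 intervals lay within 0.3 of 0 on the log2 scale, which does not show that the genes were unchanged. The intervals of Acad10 (-0.58 to 0.10) and Acad11 (-0.36 to 0.036) were wider. The falls were thus in the long-chain, short-chain and short branched-chain enzymes, and the differences between enzymes were not tested.

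**Figure D2:**
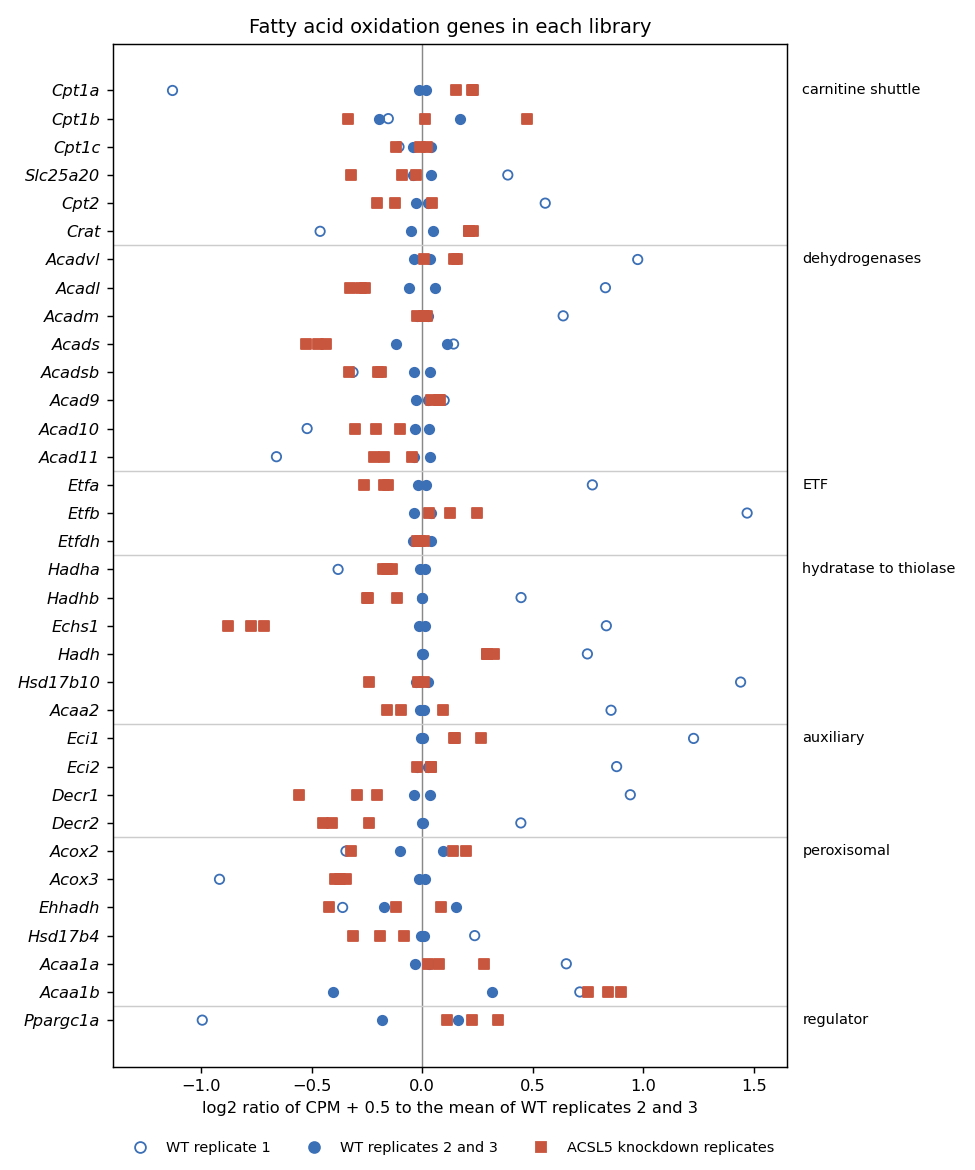
Log2 ratio of each library's CPM (0.5 added) to the mean of WT replicates 2 and 3 (horizontal axis) for the 34 genes by step; open circles are WT replicate 1, filled circles WT replicates 2 and 3, squares the 3 knockdown libraries. WT replicate 1 lies far from the other 5 libraries at 1.47 for Etfb, 1.44 for Hsd17b10 and -1.13 for Cpt1a.

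The electron transfer flavoprotein is a dimer of ETFA and ETFB that accepts electrons from the dehydrogenases, and ETFDH hands them to ubiquinone. Over 5 libraries, 1 of the 3 fell and 2 did not pass (median -0.02). Etfa stood at 129, 74.8 and 76.6 CPM in the WT libraries and 67.1, 68.0 and 63.0 CPM in the knockdown libraries. All knockdown values lay below all WT values in CPM, while in TPM the groups overlapped. Etfa fell to 87.2% of the mean of WT replicates 2 and 3 (log2 fold change -0.21, SE 0.053, adjusted p = 0.0108). Its partner Etfb, the most abundant of the 3, stood at 171, 59.8 and 63.1 CPM in WT and 62.8, 67.0 and 73.1 CPM in knockdown. WT replicate 1 was far above the rest, and the groups overlapped with and without it. Etfb had a log2 fold change of 0.12 (95% interval -0.036 to 0.28, adjusted p = 0.217) over 5 libraries and -0.53 over 6. Etfdh differed least of the 3 (-0.02, -0.14 to 0.089). The 2 subunits of the dimer thus had fold changes of opposite sign over 5 libraries, of which only that of Etfa passed. In TPM, Etfb was at 225, 197 and 201 in WT and 267, 233 and 236 in knockdown, with no overlap.

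The steps from hydratase to thiolase held the lowest fold change among the 34 and both genes called in every alternative analysis of the 5 libraries. Over 5 libraries, 1 of the 6 genes rose, 3 fell and 2 did not pass (median -0.14). Echs1, the mitochondrial short-chain enoyl-CoA hydratase, lies at chr7:140105710-140116476, minus strand (GRCm38). It stood at 172, 97.1 and 95.4 CPM in the WT libraries and 52.1, 58.4 and 56.0 CPM in the knockdown libraries. All 3 knockdown libraries were lower than all WT libraries, in CPM and in TPM (102, 104 and 104 TPM in WT and 57.0, 64.0 and 60.2 TPM in knockdown). The mean was 55.5 ± 3.14 CPM (SD, n = 3) in knockdown and 96.2 ± 1.25 CPM (SD, n = 2) in WT replicates 2 and 3, or 57.7% (log2 fold change -0.81, SE 0.060, adjusted p = 1.13e-05, 95% interval -0.94 to -0.68). Over 6 libraries the value was -1.13 (unadjusted p = 0.00487, adjusted p = 0.152). Echs1 was called in each of 17 alternative analyses of the 5 libraries, with values between -0.84 and -0.75. Its deposited counts were not whole in any library, so some of its reads may be shared with another locus.

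Hadh, the hydroxyacyl-CoA dehydrogenase of medium and short chains, which acts on the product of ECHS1, lies at chr3:131233419-131272101, minus strand. It stood at 164, 97.0 and 97.4 CPM in the WT libraries and 122, 119 and 119 CPM in the knockdown libraries. The knockdown values lay above WT replicates 2 and 3 and below WT replicate 1, so the groups of 3 overlapped in CPM. Hadh rose to 124% over 5 libraries (log2 fold change 0.29, SE 0.047, adjusted p = 0.00095, 95% interval 0.19 to 0.39) but had a value of 0.01 over 6. In TPM the groups did not overlap, at 81.9, 90.9 and 91.1 TPM in WT and 114, 114 and 113 TPM in knockdown. Hadh was the only other gene of the 34 called in all 17 alternatives of the 5 libraries, with values between 0.27 and 0.32. Enzymes of consecutive steps therefore moved in opposite directions over 5 libraries, one lower and one higher.

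The stretches upstream of both genes are shown because these 2 calls held in every alternative. They are taken from RefSeq promoter windows on GRCm38.p6 (250 bases before the start site) and keep only bases outside exons of protein-coding transcripts. Both read 5′ to 3′ on the minus strand, where both genes lie. Capitals mark AGGTCA, the core bound by many nuclear receptors of fatty acid metabolism. The Echs1 stretch (chr7:140116477-140116671) holds 1 such match and the Hadh stretch (chr3:131272102-131272351) none.
Echs1: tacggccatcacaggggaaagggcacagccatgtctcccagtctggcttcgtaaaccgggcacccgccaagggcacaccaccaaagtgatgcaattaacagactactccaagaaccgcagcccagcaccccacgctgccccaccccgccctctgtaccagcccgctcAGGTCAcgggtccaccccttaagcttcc
Hadh: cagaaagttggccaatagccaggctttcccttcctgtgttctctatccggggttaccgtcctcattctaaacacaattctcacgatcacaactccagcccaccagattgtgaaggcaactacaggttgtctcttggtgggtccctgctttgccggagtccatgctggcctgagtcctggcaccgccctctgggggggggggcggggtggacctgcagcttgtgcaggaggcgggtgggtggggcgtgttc

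Hadha and Hadhb encode the alpha and beta subunits of the mitochondrial trifunctional protein, which carries out the steps after the dehydrogenase for long chains. They lie head to head on chromosome 5, with RefSeq start sites 273 bases apart. In GENCODE M21 the genes lie closer together, with Hadha reaching to 30155162 and Hadhb starting at 30155248. The RefSeq start of Hadha, at 30154980, thus lies inside the GENCODE gene. Hadha stood at 142, 184 and 186 CPM in the WT libraries and 168, 166 and 164 CPM in the knockdown libraries. WT replicate 1 was the lowest of the 6, and the knockdown libraries lay between it and WT replicates 2 and 3. Hadhb stood at 95.8, 70.2 and 70.1 CPM in WT and 59.2, 64.9 and 58.9 CPM in knockdown, with WT replicate 1 the highest and every knockdown library below every WT library. Both fell over 5 libraries, Hadha to 89.6% (log2 fold change -0.17, SE 0.043, adjusted p = 0.00965) and Hadhb to 86.9% (log2 fold change -0.22, SE 0.060, adjusted p = 0.0174). Neither was called on the TPM scale, where the groups of 3 overlapped for both genes. WT replicate 1 thus lay on opposite sides for the pair: Hadha, at 4017 bases, was lower in that library and Hadhb, at 2045 bases, was higher.

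Part of the stretch between the 2 genes is shown because it lies upstream of both. It is the part of the RefSeq promoter window of Hadha outside annotated exons (chr5:30155163-30155230, GRCm38.p6, minus strand). The bases shown hold no match to AGGTCA. Those from there to the GENCODE start of Hadhb at 30155248 are not shown.
Hadha and Hadhb: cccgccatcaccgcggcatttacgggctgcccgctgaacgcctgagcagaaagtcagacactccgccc

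Hsd17b10, which oxidises short branched hydroxyacyl-CoA and is a subunit of mitochondrial RNase P, had the highest mean TPM of the 34 over the 6 libraries. In the knockdown mean Etfb was higher (245 against 207 TPM). Hsd17b10 was at 311 TPM in WT replicate 1. It stood at 288, 104 and 108 CPM in the WT libraries and 89.2, 106 and 104 CPM in the knockdown libraries. WT replicate 1 was far above every other library, and the remaining 5 overlapped. Its log2 fold change was -0.10 (95% interval -0.28 to 0.087) over 5 libraries and -0.74 over 6, and neither passed. Acaa2, the thiolase of medium and long chains, had -0.07 (-0.24 to 0.11) over 5 libraries.

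**Figure D3:**
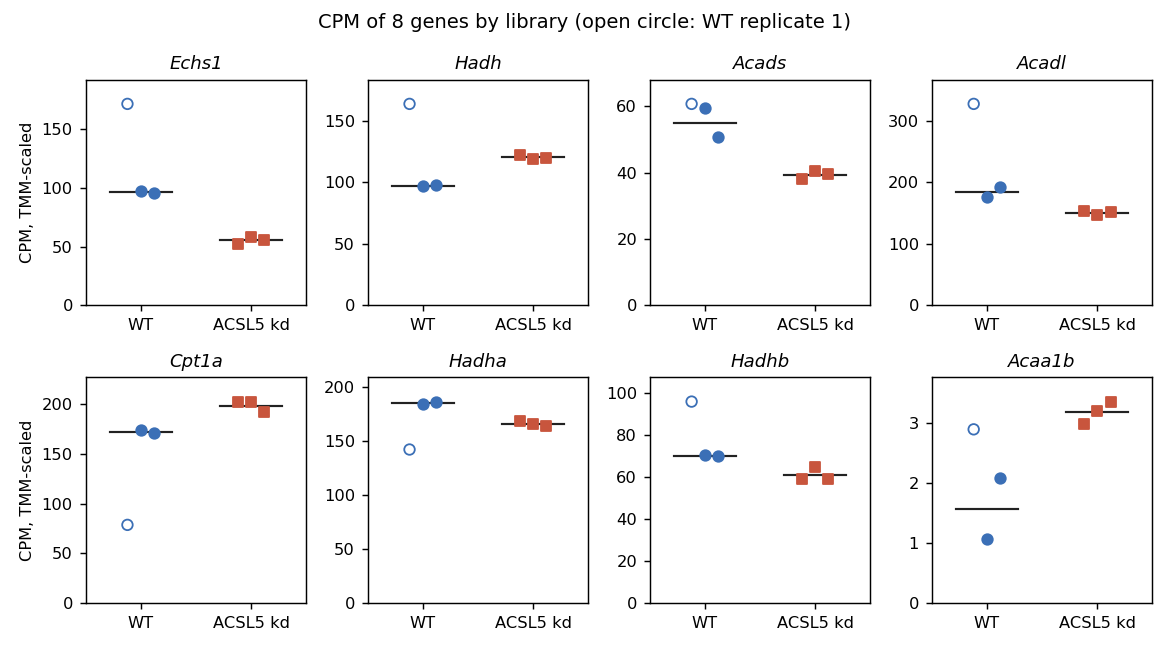
CPM scaled by TMM (vertical axes from 0) of 8 genes in the 3 WT libraries (circles, replicate 1 open) and the 3 knockdown libraries (squares); lines are the mean of WT replicates 2 and 3 and the mean of the knockdown libraries. Echs1 falls from 96.2 to 55.5 CPM and Hadh rises from 97.2 to 120.2 CPM between these means, with WT replicate 1 above both.

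Unsaturated chains need auxiliary enzymes that move or remove double bonds. Of the 4 such genes, 2 fell over 5 libraries, none rose and 2 did not pass (median -0.18). Decr1, the mitochondrial 2,4-dienoyl-CoA reductase, stood at 50.9, 25.6 and 26.9 CPM in the WT libraries and 17.7, 21.3 and 22.7 CPM in the knockdown libraries. Every knockdown library lay below every WT library, in TPM too (14.8, 14.1 and 15.9 TPM in WT and 9.81, 12.9 and 12.4 TPM in knockdown). Decr1 fell to 78.3% of the mean of WT replicates 2 and 3 (log2 fold change -0.37, SE 0.11, adjusted p = 0.0263) and had -0.74 over 6 libraries (unadjusted p = 0.0476). Its peroxisomal counterpart Decr2 stood at 41.9, 30.7 and 30.5 CPM in WT and 22.9, 25.8 and 22.3 CPM in knockdown. These groups did not overlap in CPM, while in TPM they did. Decr2 fell to 77.4% (log2 fold change -0.39, SE 0.086, adjusted p = 0.00586; -0.54 and unadjusted p = 0.0204 over 6 libraries). So the reductases of both compartments were lower in knockdown over 5 libraries.

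The enoyl-CoA isomerases Eci1 and Eci2, which shift a double bond into the position the hydratase needs, did not pass. Eci2, the most abundant auxiliary gene, stood at 128, 67.9 and 70.3 CPM in the WT libraries and 67.9, 71.1 and 71.0 CPM in the knockdown libraries. Apart from WT replicate 1 the libraries spanned less than 4 CPM, and the log2 fold change was 0.0027 (95% interval -0.12 to 0.12). In TPM the groups of Eci2 did not overlap, at 78.5, 78.9 and 78.8 TPM in WT and 72.6, 77.6 and 75.8 TPM in knockdown. Eci1 had 0.17 (0.025 to 0.32, edgeR unadjusted p = 0.026 and adjusted p = 0.0689).

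In the peroxisomal pathway, 1 of 6 genes rose over 5 libraries, 2 fell and 3 did not pass (median -0.10). Acox3, an acyl-CoA oxidase of branched chains, stood at 11.9, 23.1 and 22.7 CPM in the WT libraries and 17.3, 17.6 and 17.9 CPM in the knockdown libraries. WT replicate 1 was the lowest library, and knockdown lay below WT replicates 2 and 3. Acox3 fell to 76.8% (log2 fold change -0.40, SE 0.084, adjusted p = 0.00444) and had -0.13 over 6 libraries. Hsd17b4, the D-bifunctional protein that joins hydratase and dehydrogenase activity, stood at 81.7, 69.5 and 68.9 CPM in WT and 65.3, 60.5 and 55.7 CPM in knockdown. The groups did not overlap in CPM. Hsd17b4 fell to 87.4% (log2 fold change -0.21, SE 0.065, adjusted p = 0.0284), a call that held in 7 of 17 alternatives.

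The peroxisomal thiolases Acaa1a and Acaa1b are close paralogs, both on chromosome 9, and their deposited counts were not whole in any library, so reads had been divided and their split is uncertain. Acaa1b, the rarer one, stood at 2.89, 1.06 and 2.08 CPM in the WT libraries and 2.98, 3.21 and 3.36 CPM in the knockdown libraries, or 24.0 to 91.4 expected counts. All knockdown libraries were highest, but WT replicates 2 and 3 lay far apart from each other. Acaa1b rose over 5 libraries (log2 fold change 0.98, SE 0.28, adjusted p = 0.0222, 95% interval 0.35 to 1.61); without WT replicate 2 the value was 0.60 and the call was lost. Acaa1a, the most abundant peroxisomal gene per length, stood at 71.4, 44.2 and 46.3 CPM in WT and 55.0, 46.0 and 47.7 CPM in knockdown. It did not pass (0.11, -0.056 to 0.28). In TPM its groups did not overlap, at 37.35 to 39.84 TPM in WT and 42.35 to 47.73 TPM in knockdown. Acox2, the oxidase of bile acid intermediates and branched chains, and Ehhadh, the L-bifunctional protein, were low, at 0.86 to 3.40 and 0.09 to 0.36 TPM. Their intervals were wide, at -0.54 to 0.56 and -1.41 to 0.83.

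Ppargc1a, the coactivator PGC-1alpha, which drives mitochondrial and oxidation genes together with nuclear receptors, stood at 2.13, 5.36 and 4.12 CPM in the WT libraries and 5.63, 6.16 and 5.16 CPM in the knockdown libraries. In TPM the groups did not overlap, in CPM they did, and WT replicate 1 was lowest on both scales. Its log2 fold change was 0.24 over 5 libraries (95% interval -0.14 to 0.63, adjusted p = 0.313), and it did not pass the test. The part of depth in this was not tested.

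By compartment, 2 of the 22 genes of the mitochondrion alone rose over 5 libraries, 8 fell and 12 did not pass, with a median log2 fold change of -0.10. Of the 7 genes of the peroxisome alone, 1 rose, 3 fell and 3 did not pass, with a median of -0.21. Of the 3 genes of both compartments, Crat rose and Acad11 and Eci2 did not pass. Falls thus occurred in both compartments, and whether the compartments differ was not tested. Summed per length, the electron transfer flavoprotein genes were higher in each knockdown library (383 to 415 TPM) than in each WT library (347 to 361 TPM), with Etfb the largest part. The carnitine shuttle genes were also higher in each knockdown library (149, 162 and 148 TPM) than in each WT library (68.6, 142 and 143 TPM). Sums of the auxiliary and of the peroxisomal genes overlapped between groups. The dehydrogenases summed to 460, 593 and 601 TPM in WT replicates 1, 2 and 3 and 502, 541 and 566 TPM in knockdown. The hydratase to thiolase genes summed to 674, 643 and 651 TPM in WT and 572, 638 and 606 TPM in knockdown, without overlap.

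In all, 19 of the 34 did not pass over 5 libraries, which does not show that they were alike in both groups. Their log2 fold changes over 5 libraries ran from -0.29 (Ehhadh) to 0.24 (Ppargc1a). For 9 of them, Acadvl, Acadm, Acad9, Etfb, Etfdh, Hsd17b10, Acaa2, Eci2 and Acaa1a, the 95% interval lay within 0.3 of 0. This limit does not part unchanged from changed genes. The intervals of the called genes Cpt1a (0.086 to 0.29) and Hadha (-0.27 to -0.080) lay within it too.

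Other genes of the pathway were taken from lists written from textbook knowledge and are given by their counts over 5 libraries, beside the 16.3% higher and 18.0% lower of all genes. Over 6 libraries edgeR called none of them, as it called no gene. Of the 15 peroxisomal partners tested and reported here, 1 rose and 4 fell (median log2 fold change -0.10). Pex14, part of the import machinery, rose (log2 fold change 0.33, SE 0.078, adjusted p = 0.00764), a call lost without WT replicate 2, without WT replicate 3 and on the TPM scales. Crot, which attaches medium chains to carnitine for export from the peroxisome, fell (log2 fold change -0.47, SE 0.051, adjusted p = 0.000104). Crot stood at 111, 150.4 and 156 CPM in WT and 108, 115 and 113 CPM in knockdown, and every knockdown library lay below WT replicates 2 and 3, with WT replicate 1 inside the knockdown range. Of 5 genes of carnitine supply and malonyl-CoA control tested, 3 fell and none rose (median -0.23). Acaca, the acetyl-CoA carboxylase that makes malonyl-CoA, stood at 63.8, 145 and 145 CPM in WT and 117, 116 and 110.5 CPM in knockdown and fell (log2 fold change -0.36, SE 0.047, adjusted p = 0.00027), while over 6 libraries it had -0.05. In TPM its groups overlapped, at 5.78, 26.0 and 25.7 TPM in WT and 23.0, 26.4 and 19.7 TPM in knockdown, and it was not called on the TPM scales (adjusted p up to 0.538 by limma).

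Among 16 transcriptional regulators tested, 5 rose and 1 fell (median 0.07). Nrip1, a corepressor of nuclear receptors, stood at 49.6, 118 and 118 CPM in WT and 154, 153 and 142 CPM in knockdown, higher in every knockdown library, and rose (log2 fold change 0.33, SE 0.050, adjusted p = 0.000722). Sirt3, the mitochondrial deacetylase that acts on several of these enzymes, stood at 8.03, 8.02 and 7.56 CPM in WT and 5.12, 4.76 and 4.94 CPM in knockdown, with no overlap, and fell (log2 fold change -0.67, SE 0.14, adjusted p = 0.00343; -0.67 and unadjusted p = 0.00322 over 6), but was not called on the TPM scales (adjusted p up to 0.109 by limma). Of 9 other dehydrogenases and accessory genes linked to the electron transfer flavoprotein, 5 fell and none rose (median -0.21). Etfbkmt, which methylates ETFB, stood at 61.5, 39.5 and 38.5 CPM in WT and 22.0, 19.0 and 21.2 CPM in knockdown. All knockdown values were lower, at 53.1% of the mean of WT replicates 2 and 3 (log2 fold change -0.93, SE 0.082, adjusted p = 2.82e-05; -1.17 and unadjusted p = 0.00171 over 6). Etfb itself, the gene of its substrate, did not pass the test.

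Further along, 2 of 6 genes of propionyl-CoA disposal fell and none rose (median -0.20), and Mmut, the mutase of methylmalonyl-CoA, had -0.23 (adjusted p = 0.0135) over 5 libraries and 0.00026 over 6. Mmut was no longer called on the TPM scales, after removal of the GC trend, or when WT replicate 2 or WT replicate 3 was also left out. Of the 5 ketone body genes reported here, 1 fell and none rose (median 0.047). Oxct1, which starts ketone body use, fell over 5 libraries (log2 fold change -0.37, SE 0.043, adjusted p = 0.000143) from values of 299, 317 and 327 CPM in WT to 257, 255 and 246 CPM in knockdown. Calls for Crot, Nrip1, Etfbkmt and Oxct1 held in all 17 alternatives of the 5 libraries.

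Gene length ran beside the values of WT replicate 1. The log2 difference of WT replicate 1 from WT replicates 2 and 3 is described across the 34 genes, which share 3 libraries. Its Pearson and Spearman correlations with log2 of the length were -0.862 and -0.833. Across the 14679 genes tested over 6 libraries, these were -0.540 and -0.598. Of the 13 genes of at least 2500 bases, 10 were lower in WT replicate 1, with a median of -0.38. Of the 21 shorter genes, 3 were lower, with a median of 0.71. The fold change over 6 libraries correlated with log2 of the length at 0.606 (Pearson) and 0.621 (Spearman) across the 34, and that over 5 libraries at 0.0087 and -0.0188. For GC content and the fold change over 5 libraries the values were 0.331 and 0.333. The part of RNA quality in these values was not tested.

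**Figure D4:**
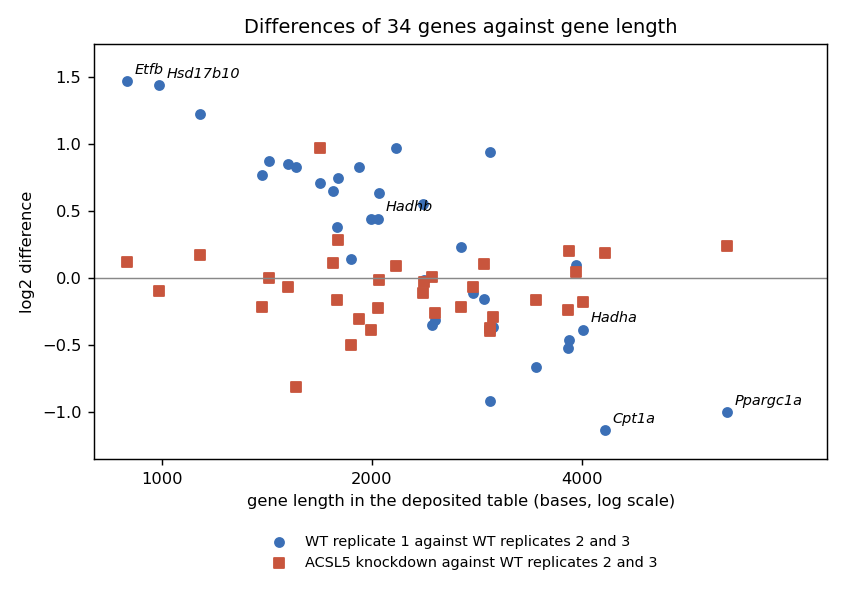
Log2 difference (vertical axis) against gene length in bases (log axis) for the 34 genes: circles give WT replicate 1 against WT replicates 2 and 3, squares the 5-library fold change of knockdown against WT. Circles run from 1.47 for Etfb at 893 bases down to -1.13 for Cpt1a at 4317 bases, while squares show a Pearson correlation of 0.0087 with log2 of the length.

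Sequence features that the choice of genes did not use were also counted. RefSeq promoter windows (GRCm38.p6) were matched for 28 of the 34 by symbol. On both strands of the 250 bases before the start, AGGTCA was found in 5 of the 28, Cpt1a, Cpt1c, Acadvl, Acadm and Echs1, and in 14% of all 32851 windows. The motif TNAAGGTCA of the estrogen-related receptors was found in none of the 28 and in 1.14% of all windows. The direct repeat of peroxisome proliferator-activated receptors, AGGTCA in tandem with 1 base between, was found in none and in 0.0335% of all. Both of these contain AGGTCA. The NRF1 motif GCGCANGCG was found in Acadm, Acad10, Etfb and Etfdh, and in 5.16% of all windows. None of these 4 genes passed the test over 5 libraries. The Acadm stretch (chr3:153944644-153944893, GRCm38.p6, minus strand) is shown because it holds both motifs, in capitals and each on the opposite strand, in a gene whose log2 fold change was -0.01.
Acadm: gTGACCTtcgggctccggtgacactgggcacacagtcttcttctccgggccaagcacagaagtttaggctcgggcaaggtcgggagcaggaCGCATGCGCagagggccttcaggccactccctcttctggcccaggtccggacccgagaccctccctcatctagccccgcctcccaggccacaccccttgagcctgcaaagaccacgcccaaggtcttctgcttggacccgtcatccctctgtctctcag

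The 3' UTR of each gene's longest protein-coding transcript was searched for GAACTAC and AACTACA. These 7-base sequences were picked out earlier from these same fold changes, so their link to lower values is no independent support. They overlap by 6 bases. None of the 34 genes holds either, while 11.8% of tested genes with a 3' UTR of at least 50 bases do and Acsl5 holds 1. Among all genes with such a site 38.5% fell over 5 libraries, and among genes without one 17.9% fell. Other transcripts of the 34 genes were not searched, and the cause of the 11 falls was not tested.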

How the data were processed

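The authors deposited 2 tables over 57508 genes and 6 libraries, one of expected counts (estimated counts, 10.1% to 13.0% not whole per library) and one of TPM, with a gene length in bases. Tools listed in the submitters' processing notes are fastp, HISAT2, StringTie and DESeq2, with neither version nor role, and the builds listed, hg38 and GRCh38, are human, although 56980 identifiers are of mouse. Strand use is not given in the sources used here, so reads of antisense or overlapping genes cannot be told apart.

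Expected counts were rounded. Genes were filtered (filterByExpr), libraries scaled by TMM and groups compared by the two-sided quasi-likelihood F test of edgeR 4.0.16 (robust, R 4.3.3) over the whole table, with Benjamini-Hochberg adjustment over all genes and a threshold of 0.05. Every adjusted p is from this test unless another is named. Fits used all 6 libraries, or 5 without WT replicate 1. On simulated counts the test was checked before use. The simulation held no library that stood apart and no trend with gene length, so it does not cover the case of WT replicate 1. DESeq2 1.42.0, limma 3.58.1 and other settings were alternatives.

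Values are given in every library for each of the 34 called in either fit, for the highest in mean TPM of each step and for those at an unadjusted p below 0.05 over 6 libraries. From each partner list, the called gene with the smallest p in each direction is named. One listed gene, Tmlhe, was not matched, and 2 listed genes are not reported here and are left out of the counts of their lists. The members, lists, rules and the second fit were chosen with earlier results of these data known. Positions are from GENCODE M21 on GRCm38.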

Additional observations from a re-analysis of the deposited data

How the results depend on the processing

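Of the 34 genes, the number called over 6 libraries went from 0 to 2 with DESeq2 (5.88%, beside 4.61% of all genes), 1 (Echs1) with each library's length trend removed (2.94%, beside 5.99%) and 15 with library quality weights in limma-voom (44.1%, beside 40.4%), the weight of WT replicate 1 being 0.0312. Leaving out 1 library at a time gave 0 to 15, the 15 without WT replicate 1. The number over 5 libraries went from 15 to 9 at an adjusted p below 0.01 (26.5%, beside 21.2%), 3 with limma-trend on log2(TPM + 1) (9.38% of 32, beside 17.8%), 5 on log2(TPM + 0.1) (15.6% of 32, beside 18.5%), 2 on log2(TPM + 1) without a filter (5.88%, beside 4.68%) and 8 with the GC trend removed (23.5%, beside 31.6%). Leaving out 1 further library gave 6 (beside 16.5% of all genes) to 17 (beside 41.4%). All 15 called genes kept their sign in all 17 alternatives of the 5 libraries. Acsl5 over 6 libraries passed at -2.31 with library totals, -2.40 without a filter, -2.44 with DESeq2, -2.43 with limma-voom, -2.60 with the length trend removed and -2.28 with quality weights. It ranged from -2.50 to -2.32 with 1 library left out.

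The labels give both groups the numbers 1 to 3. Deviations of same-numbered libraries from their group means correlated at -0.115, 0.0201 and -0.142. The WT means include WT replicate 1, which stood apart, so these values cannot decide whether the numbers pair the libraries. With the replicate block, 0 of the 34 were called over 6 libraries and 17 over 5 (beside 38.0% of all genes), where Acadvl (0.14) and Etfb (0.18) were added.

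Signs turned over 6 libraries for genes not called there. On log2(TPM + 1) and log2(TPM + 0.1) the values were 0.055 and 0.060 for Acadsb, 0.37 and 0.38 for Hadha, 0.21 and 0.28 for Acox3 and 0.020 and 0.021 for Hsd17b4. Library totals gave 0.050 for Hadha and the size factors of DESeq2 gave -0.0044 for Hadh. With 1 library left out, the ranges were -0.17 to 0.019 for Hadha, -0.13 to 0.29 for Hadh and -0.40 to 0.026 for Acox3.

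Signs also turned over 5 libraries, for genes not called there and, over all 6, for Mmut. All 6 libraries gave -0.30 for Acadvl, 0.042 for Acad11, -0.53 for Etfb, -0.35 for Eci1, -0.34 for Eci2, -0.12 for Acaa1a and 0.00026 for Mmut. Acadm was 0.020 with library totals, 0.0022 without a filter, 0.0029 with a filter of 1 CPM and 0.039 with the GC trend removed. The GC trend removed gave -0.048 for Etfb, 0.10 for Etfdh and -0.0029 for Acox2. Etfdh was 0.0094 with library totals and 0.041 on both TPM scales. Eci2 was -0.065 and -0.066 on these scales and -0.025 with the length trend removed. Acox2 was -0.13 and -0.19 on them and -0.013 with limma-voom. With 1 library left out, ranges were -0.18 to 0.34 for Cpt1b, -0.041 to 0.0095 for Acadm, -0.067 to 0.016 for Etfdh, -0.14 to 0.00098 for Acaa2, -0.024 to 0.040 for Eci2, -0.10 to 0.19 for Acox2 and -0.55 to 0.065 for Ehhadh. TPM moved the median over all genes tested in 6 libraries to 0.26 (+ 1) or 0.30 (+ 0.1). The causes were not tested. Cpt1b, Cpt1c, Acox2 and Ehhadh had low counts, and Acaa1b had as few as 24.0 expected counts.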
